A study of Mus musculus with 12 samples.

Results

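The 10 transcripts described here are messenger RNAs of the mitochondrial genome: mt-Nd1, mt-Nd2, mt-Nd4, mt-Nd5, mt-Nd6, mt-Cytb, mt-Co1, mt-Co2, mt-Co3 and mt-Atp6. They were chosen by symbol, as the rows of the deposited count table whose Ensembl identifiers carry these names in GENCODE M21, and make up 10 of its 54532 genes and 10 of the 13 mitochondrial protein-coding genes. The question was whether their levels in frontal cortex differed between mice of the genotype APP/PS1/Hras-/- and mice of the genotype APP/PS1, a transgenic model of amyloid deposition. All mice carried the APP/PS1 transgenes and were 9 months old. The comparison is of loss of Hras, a small GTPase of the Ras family, on that background. Each genotype had 3 males and 3 females, in the groups APP/PS1/Hras-/- male, APP/PS1 male, APP/PS1/Hras-/- female and APP/PS1 female, with 1 library per mouse. Neither the promoters of the transgenes nor the design of the Hras allele is given in the sources used here. Replicate numbers follow the order of the samples, pair no mice, and p-values measure the spread between these libraries.

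The mitochondrial genome of mammals is a small circular DNA present in many copies per cell. It encodes core subunits of the respiratory chain, which pumps protons across the inner mitochondrial membrane, and of the ATP synthase that uses the resulting gradient, while the remaining subunits are encoded in the nucleus. Both strands are transcribed into long precursors, from which most messenger RNAs are released when the transfer RNAs between them are cut out, and poly(A) tails are then added. Neurons depend heavily on this pathway for their ATP. Copies of mitochondrial DNA have also been inserted into the nuclear genome, and the most recent of them can be close to identical to the original.

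The tails matter for how these transcripts are read and how they are captured in mRNA libraries. The annotated reading frames of mt-Nd4, mt-Co3 and mt-Cytb are not whole numbers of codons and end in a lone T. The U it gives in the RNA becomes a UAA stop codon when the poly(A) tail is added. The last 30 bases of each frame are shown as DNA, 5′ to 3′ on the plus strand, with that T in capitals. They are from the GENCODE M21 transcripts and lie in GRCm38 at chrM:11515-11544 (mt-Nd4), chrM:9361-9390 (mt-Co3) and chrM:15259-15288 (mt-Cytb).
mt-Nd4: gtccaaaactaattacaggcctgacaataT
mt-Co3: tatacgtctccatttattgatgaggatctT
mt-Cytb: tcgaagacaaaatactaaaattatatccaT

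A stretch of mouse chromosome 1 is annotated with 7 pseudogenes that match mt-Co1, mt-Co2, mt-Atp6, mt-Co3, mt-Nd3, mt-Nd4l and mt-Nd4, in the order of the mitochondrial genome, at 98% identity or more. mt-Atp8, which lies between mt-Co2 and mt-Atp6, has no such annotated copy there. They lie on the minus strand of GRCm38 chr1:24611535-24616197, 4663 bases, and match the stretch chrM:6390-11042 of 4653 bases. Of the 7 alignments, 5 had no mismatch. Over the aligned length the copies of mt-Co2 (Gm28661, 681 bases), mt-Atp6 (Gm10925, 678 bases), mt-Co3 (Gm28437, 783 bases) and mt-Nd4 (Gm28439, 876 bases, 63.6% of the gene) were identical to the mitochondrial sequence. These pairs are shown because a read from such a stretch aligns equally well to both genomes. The stretches are 60 bases, 5′ to 3′ along the gene, from GENCODE M21 transcripts on GRCm38. They lie at chrM:7323-7382 and chr1:24615196-24615255 (mt-Co2 and its copy), chrM:8236-8295 and chr1:24614283-24614342 (mt-Atp6) and chrM:8968-9027 and chr1:24613551-24613610 (mt-Co3), with the mitochondrial genes on the plus strand and the copies on the minus strand. No capitals appear because no base differs.
mt-Co2: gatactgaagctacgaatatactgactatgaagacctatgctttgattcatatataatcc
Gm28661: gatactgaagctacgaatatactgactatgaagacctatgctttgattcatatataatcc
mt-Atp6: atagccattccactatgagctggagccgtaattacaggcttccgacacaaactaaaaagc
Gm10925: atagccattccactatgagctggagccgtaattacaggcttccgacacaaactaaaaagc
mt-Co3: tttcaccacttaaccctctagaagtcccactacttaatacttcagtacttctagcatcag
Gm28437: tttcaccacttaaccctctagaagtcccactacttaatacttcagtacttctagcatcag

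Other members had copies that differ, or copies of only part of the gene. A longer copy of mt-Co1 lies below the 98% limit, Gm13340, which aligned over 1545 bases at 97.6% identity with 37 mismatches. mt-Co2 too had a further copy below the limit, Gm13341, at 95.9% over 684 bases. The copy of mt-Co1 on chromosome 1, Gm29216, covers 483 of its 1545 bases (31.3%) with 1 mismatch, A1066T. That position is counted from 1 at the first base of mt-Co1. The stretch around it lies at chrM:6390-6449, plus strand, and chr1:24616129-24616188, minus strand. The annotated copy nearest to mt-Nd5, Gm11407 on chromosome 4, shares 92.3% of 1058 aligned bases and has 4 differences in the 60 bases shown, at chrM:12789-12848 and chr4:80002631-80002690, both on the plus strand. Capitals mark the bases that differ within each pair.
mt-Co1: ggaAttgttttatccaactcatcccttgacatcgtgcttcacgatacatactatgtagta
Gm29216: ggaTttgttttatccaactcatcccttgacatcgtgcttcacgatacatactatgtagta
mt-Nd5: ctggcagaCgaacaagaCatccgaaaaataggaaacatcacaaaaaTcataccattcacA
Gm11407: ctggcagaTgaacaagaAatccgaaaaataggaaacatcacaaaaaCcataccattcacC

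Each gene was cut into all its windows of 150 bases, the length of 1 read, and the windows were looked up in the nuclear transcripts of GENCODE M21. An exact match was found for 99.4% of the windows of mt-Co2, 99.4% of mt-Atp6 and 99.8% of mt-Co3. The share was 59.2% for mt-Nd4 and 23.6% for mt-Co1. No window of mt-Nd1, mt-Nd2, mt-Nd5, mt-Nd6 or mt-Cytb matched. How reads with several equally good alignments were counted is not given in the sources used here.

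The 12 libraries held 13984692 to 20174131 counts each. Hras stood at 19.4 to 23.4 CPM (counts scaled to a library of 1000000 counts, with TMM factors) in the 6 APP/PS1/Hras-/- libraries and at 73.7 to 101.7 CPM in the 6 APP/PS1 libraries, so the labels and the targeted gene went together. RIN, the RNA integrity number, was 8.67 ± 0.058 in knockout males, 8.10 ± 0.26 in APP/PS1 males, 8.40 ± 0.10 in knockout females and 8.53 ± 0.058 in APP/PS1 females (SD, n = 3 each). All 5 markers of cortical excitatory neurons were present in every library, with a summed level of 1294 to 1905 CPM. The summed level of 5 choroid plexus markers ran from 10.98 to 3051 CPM. The first principal component, 23.9% of the variance, separated a pair of libraries from the other 10: knockout male 1 scored 39.5 on it and the second APP/PS1 female 46.8. In bulk tissue, fewer cells of a type and less RNA per cell cannot be told apart.

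The members fell into a high and a low set. Levels per length were highest for mt-Co1, the catalytic core of complex IV, at 9326 ± 849 CPM per kilobase (SD, n = 12, as for all levels per kilobase). Next came mt-Cytb, the cytochrome b of complex III, at 5188 ± 608 CPM per kilobase. The complex I subunits followed, with mt-Nd1 at 4581 ± 508, mt-Nd2 at 2968 ± 432, mt-Nd5 at 2005 ± 255 and mt-Nd4 at 1881 ± 213 CPM per kilobase. These 6 genes, all read from the same strand, held at least 99.4% of the member counts in every library, and mt-Co1 alone held 40.2 to 43.6%.

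The low set held the other 4 members. Their mean levels were 46.3 ± 9.33 CPM per kilobase for mt-Nd6, 46.0 ± 54.6 for mt-Co2, 29.8 ± 21.7 for mt-Atp6 and 27.6 ± 35.6 for mt-Co3. The level of mt-Nd4 per kilobase was 41.5 ± 6.55 times that of mt-Nd6 (SD of the ratio, n = 12), and no range of a gene in the high set met a range of the low set.

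Within the order, mt-Co1 lay above mt-Cytb, mt-Nd1 above mt-Nd2 and mt-Nd2 above mt-Nd5 in all 12 libraries. mt-Cytb lay above mt-Nd1 in 11 of 12, and mt-Nd5 above mt-Nd4 in 11 of 12. The ranges of the pairs mt-Cytb and mt-Nd1, mt-Nd2 and mt-Nd5, and mt-Nd5 and mt-Nd4 overlapped across mice. mt-Nd6 lay above mt-Co2 in 11 of 12 libraries, the exception being APP/PS1 male 2. mt-Co2 and mt-Atp6 (8 of 12), and mt-Atp6 and mt-Co3 (7 of 12), had no steady order.

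**Figure D1:**
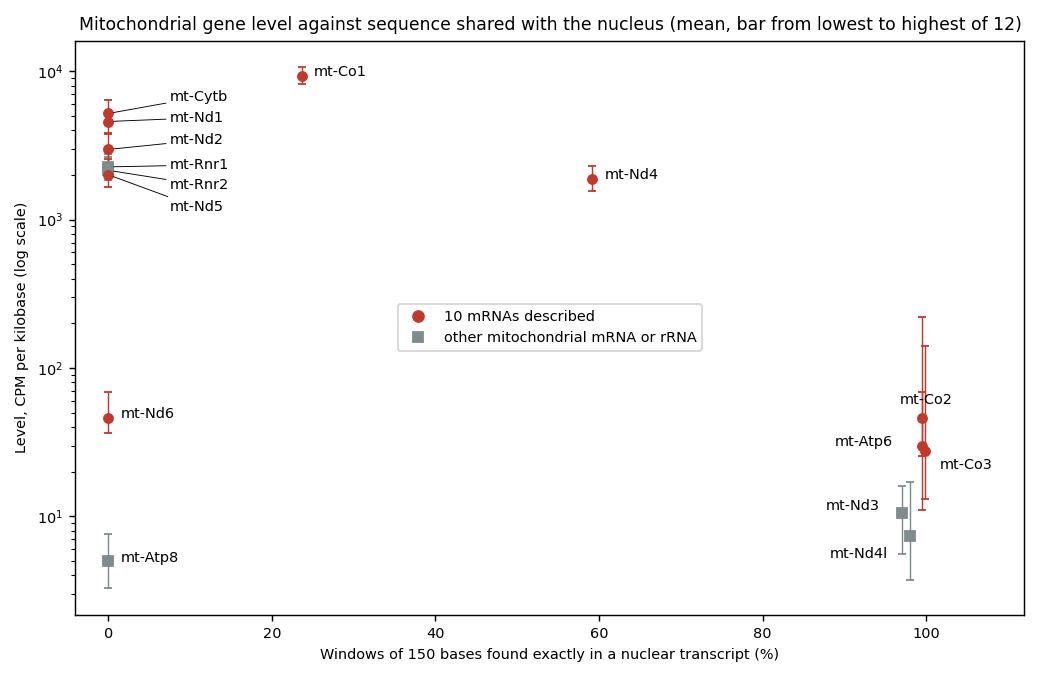
Mean level of each mitochondrial messenger and ribosomal RNA (CPM per kilobase, log scale) against the share of its 150-base windows found exactly in a nuclear transcript; bars run from the lowest to the highest of 12 libraries. mt-Co2, mt-Co3 and mt-Atp6 lie at the right with means of 27.6 to 46.0 CPM per kilobase, while mt-Nd6 is low at 46.3 with no matching window.

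The 3 members with nearly all windows matched were 3 of the 4 in the low set. mt-Nd6 was in the low set with no window matched. It is the only protein-coding gene of the other strand, and its messenger RNA is known from human cells to lack a poly(A) tail. For mt-Nd4 and mt-Co1, of which part is matched, the level per 1000 unmatched windows was 5165 and 13517 CPM, against 5426 CPM for mt-Nd1 and 5965 CPM for mt-Cytb. On this scale mt-Nd4 lay above mt-Nd2 (3466 CPM) and mt-Nd5 (2184 CPM), whereas per kilobase it lay below both. Whether unmatched windows alone gave the counts was not tested.

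The first comparison set the 6 knockout libraries against the 6 APP/PS1 libraries, with sex in the model. None of the 10 members passed the test, and the 7 with narrow errors had log2 differences from −0.12 to 0.10. Of all 17307 genes tested, 0.0173% passed at an adjusted p under 0.05. At an unadjusted p under 0.05 the counts were 0 of 10 members and 1.68% of all genes. DESeq2 and limma-voom also called 0 members, although DESeq2 gave no p for mt-Co2 and mt-Co3. The groups overlapped for all 10 members, while they did not overlap for 0.116% of all genes. Of the members, 2 lay higher and 8 lower in the knockout, with a median log2 difference of −0.075, against 51.1% higher and a median of 0.0024 over all genes tested.

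Among the complex I subunits, mt-Nd1 encodes a membrane subunit near the quinone site. It stood at 4731, 4823 and 4024 CPM in knockout males, against 4692, 3876 and 3908 CPM in APP/PS1 males. In females it stood at 3646, 5097 and 3880.5 CPM in the knockout, against 4557, 4854 and 4518 CPM in APP/PS1. The highest and the lowest library of the series for this gene were both knockout females, and the groups overlapped in each sex. Its log2 difference across sexes was −0.010 (SE 0.095, 95% interval −0.20 to 0.18).

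mt-Nd2, mt-Nd4 and mt-Nd5 encode the large membrane subunits of the proton-pumping arm. mt-Nd2 ranged from 2483 to 3903 CPM in knockout libraries and from 2656 to 3767 CPM in APP/PS1 libraries, with a log2 difference of −0.063 (SE 0.11). mt-Nd4 ranged from 2163 to 2862 CPM in the knockout and from 2376 to 3163 CPM in APP/PS1, with a log2 difference of −0.12 (SE 0.087). Both ranges overlapped broadly.

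mt-Nd5 stood at 4013, 3455 and 3546 CPM in knockout males, against 3025, 3422 and 3675 CPM in APP/PS1 males. In females it stood at 3170, 4008 and 3205 CPM in the knockout, against 3697, 4694 and 3986 CPM in APP/PS1. In each sex 1 library of the lower group reached into the other group. The log2 difference across sexes was −0.066 (SE 0.098).

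mt-Nd6, another membrane subunit of complex I, stood at 35.8, 23.6 and 20.5 CPM in knockout males, against 19.1, 18.9 and 22.6 CPM in APP/PS1 males. In females it stood at 22.8, 25.1 and 21.2 CPM in the knockout, against 24.9, 30.5 and 23.6 CPM in APP/PS1. The highest value was knockout male 1, one of the pair separated by the first component. The log2 difference across sexes was 0.10 (SE 0.15), and −0.052 without that library.

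mt-Cytb carries electrons within complex III. It stood at 6416, 5551 and 5328 CPM in knockout males, against 5909, 5461 and 5579 CPM in APP/PS1 males. In females it stood at 4968, 6885 and 5385 CPM in the knockout, against 6085, 7308 and 6351 CPM in APP/PS1. Only knockout female 2 among the knockout females lay within the range of APP/PS1 females. The log2 difference across sexes was −0.083 (SE 0.091).

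mt-Co1, mt-Co2 and mt-Co3 encode the core of complex IV, with mt-Co1 holding the site where oxygen is reduced and mt-Co2 the entry point of electrons from cytochrome c. mt-Co1 stood at 14179, 14201 and 13434 CPM in knockout males, against 14179, 13899 and 13824 CPM in APP/PS1 males. In females it stood at 12812, 16237 and 12612 CPM in the knockout, against 14716, 16539 and 16277 CPM in APP/PS1. The males of both genotypes lay close together, and knockout female 2 stood with the APP/PS1 females. The log2 difference across sexes was −0.097 (SE 0.075), and over all libraries mt-Co1 was the member with the smallest spread (coefficient of variation 9.11%).

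**Figure D2:**
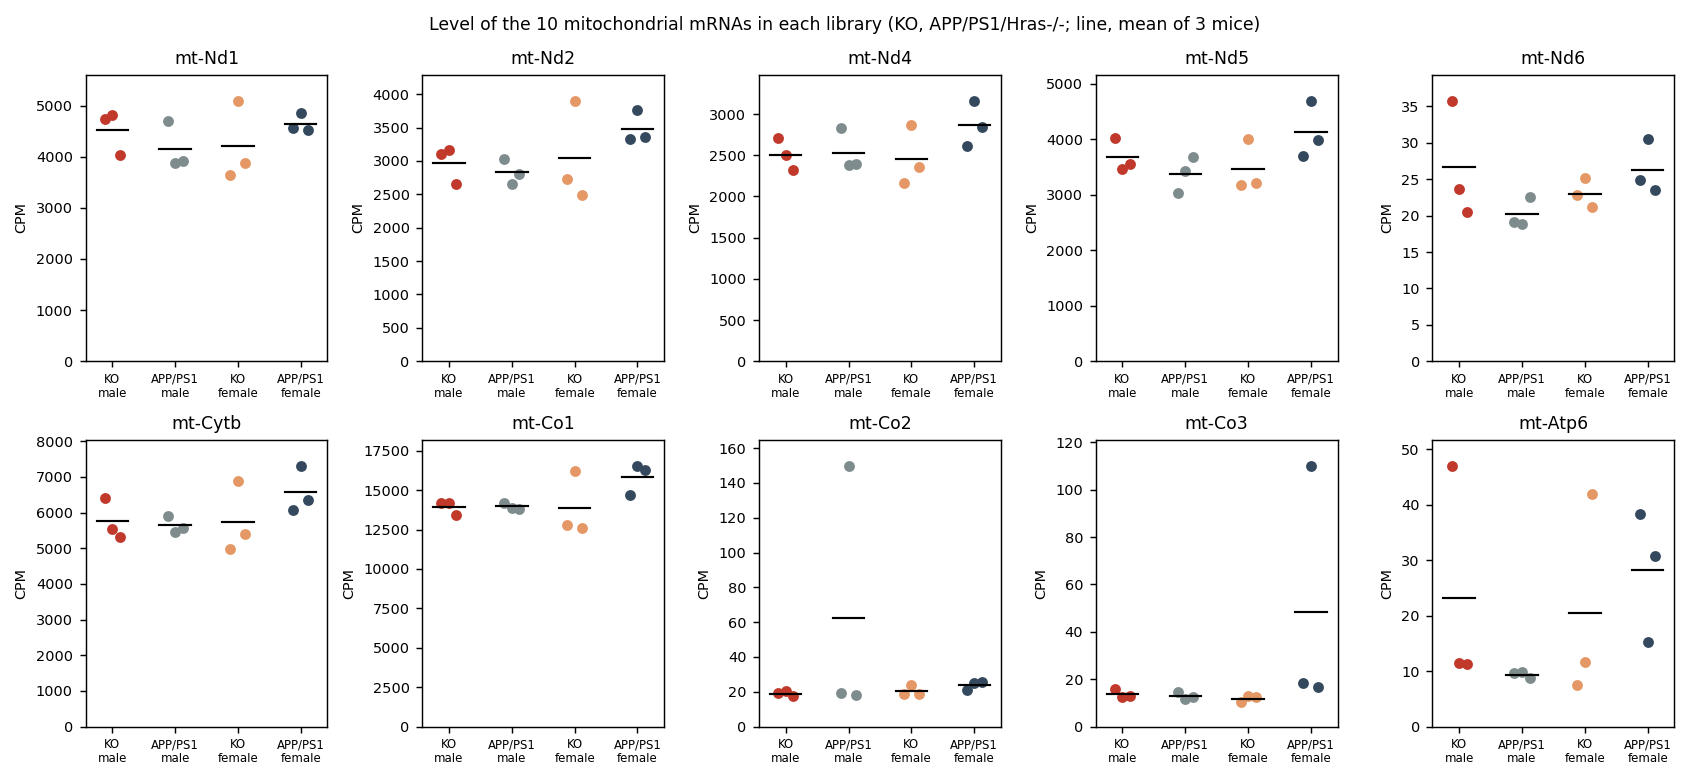
Level of each of the 10 mRNAs in every library (CPM, axes from 0) by genotype and sex, with a line at the mean of 3 mice; KO is APP/PS1/Hras-/-. Single libraries stand far above the rest for mt-Co2 (149.8 CPM in APP/PS1 male 2) and mt-Co3 (110.1 CPM in APP/PS1 female 2), and 4 libraries stand high for mt-Atp6.

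The wide spreads of mt-Co2 and mt-Co3 each came from 1 library. mt-Co2 stood at 17.4 to 23.6 CPM in the 6 knockout libraries, against 18.4 to 25.9 CPM in 5 APP/PS1 libraries and 149.8 CPM in APP/PS1 male 2. mt-Co3 stood at 10.2 to 15.9 CPM in the 6 knockout libraries, against 11.8 to 18.2 CPM in 5 APP/PS1 libraries and 110.1 CPM in APP/PS1 female 2. The raw counts of these libraries were 2891 for mt-Co2 and 1911 for mt-Co3. A different library stood out for each gene, and the high library of one was within the range of the others for the other.

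The log2 difference of mt-Co2 across sexes was −1.004 (SE 0.56) with all libraries and −0.14 without APP/PS1 male 2. That of mt-Co3 was −1.002 (SE 0.59) with all libraries and −0.21 without APP/PS1 female 2. With the counts of the nuclear copy added to the gene, the values were −0.85 for mt-Co2 and −0.59 for mt-Co3. The copy of mt-Co2, Gm28661, also had its highest count in APP/PS1 male 2, at 510 against 151 to 335 elsewhere. The copy of mt-Co3, Gm28437, had 278 counts in APP/PS1 female 2, within its range of 149 to 353.

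mt-Atp6 encodes the membrane subunit through which protons flow in the ATP synthase. It stood at 47.0, 11.4 and 11.3 CPM in knockout males, against 9.57, 9.79 and 8.73 CPM in APP/PS1 males. In females it stood at 7.53, 11.7 and 42.0 CPM in the knockout, against 38.3, 15.3 and 30.8 CPM in APP/PS1. Counts were 625 to 802 in 4 libraries of 3 groups and 116 to 266 in the other 8. The 4 high libraries were not those high for mt-Co2 or mt-Co3. The log2 difference across sexes was 0.39 (SE 0.60), −0.15 without knockout male 1 and 0.074 with the counts of the copy Gm10925 added.

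**Figure D3:**
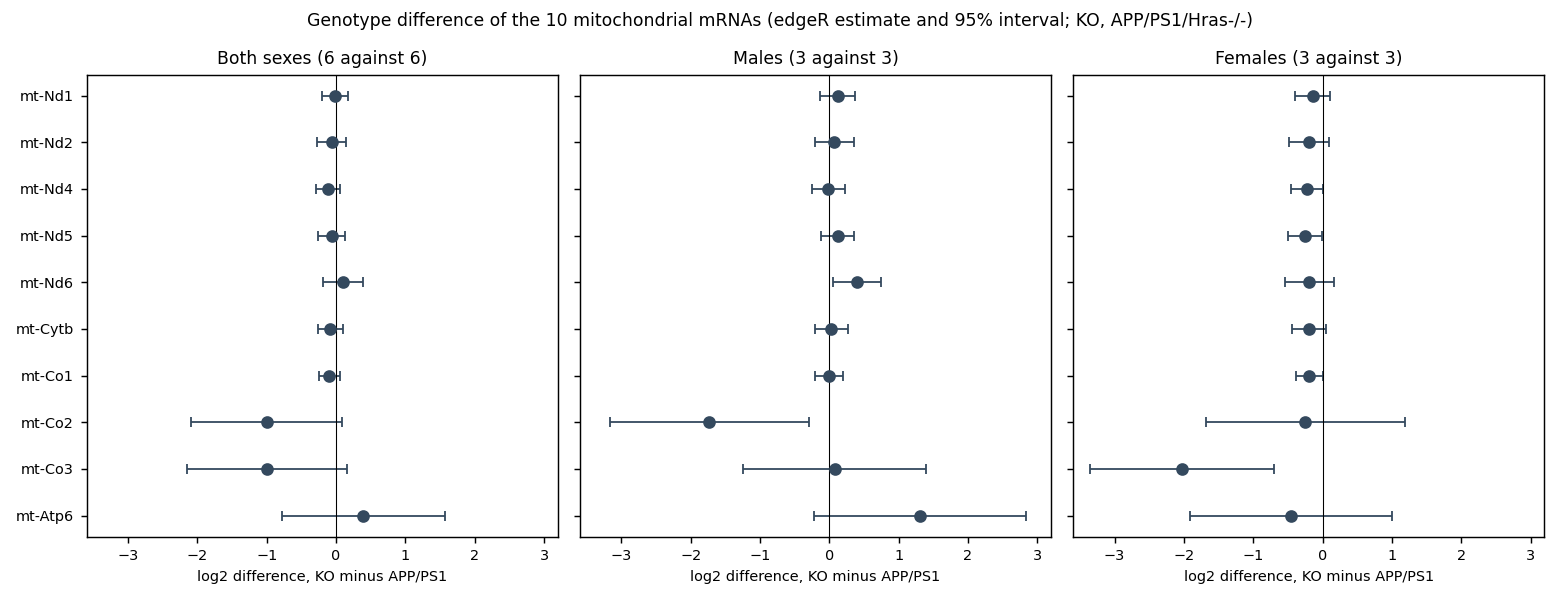
Log2 difference, APP/PS1/Hras-/- (KO) minus APP/PS1, of the 10 mRNAs for both sexes, males and females, with bars for the 95% interval. mt-Nd6 and the 6 abundant genes lie between −0.25 and 0.40 with short bars, and the bars of mt-Co2, mt-Co3 and mt-Atp6 are several times longer.

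Within males, 7 members lay higher and 3 lower in the knockout, with a median log2 difference of 0.074 (0.0063 over all genes tested), and none of the 10 passed the test (0.0116% of all genes passed). At an unadjusted p under 0.05 there were 2 members, mt-Co2 and mt-Nd6, against 3.91% of all genes. mt-Nd6 differed by 0.40 (SE 0.18, edgeR adjusted p = 0.945), and by 0.13 without knockout male 1. mt-Co2 differed by −1.73 (SE 0.73, edgeR adjusted p = 0.945), and by −0.0032 without APP/PS1 male 2. Only mt-Atp6 had groups that did not overlap, at 11.3 to 47.0 CPM in the knockout against 8.73 to 9.79 CPM in APP/PS1, which is 1 of 10 members beside 10.3% of all genes. Its log2 difference was 1.31 (SE 0.78), and 0.28 without knockout male 1.

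Within females, all 10 members lay lower in the knockout, with a median log2 difference of −0.21 (0.0021 over all genes tested), and again none passed (0.0116% of all genes passed). At an unadjusted p under 0.05 there was 1 member, mt-Co3, against 3.81% of all genes. mt-Co3 differed by −2.03 (SE 0.67, edgeR adjusted p = 0.991), and by −0.56 without APP/PS1 female 2. It was also the only member whose groups did not overlap, at 10.2 to 12.7 CPM in the knockout against 16.5 to 110.1 CPM in APP/PS1, 1 of 10 members beside 9.34% of all genes. Among the abundant members the differences ran from −0.14 (SE 0.13) for mt-Nd1 to −0.25 (SE 0.12) for mt-Nd5. These sizes depended on single libraries. Without knockout female 2 they lay farther from 0, at −0.30 for mt-Nd1, −0.42 for mt-Nd2, −0.32 for mt-Co1 and −0.34 for mt-Cytb. Without knockout female 1 mt-Nd1 was at −0.049 and mt-Cytb at −0.10, and without knockout female 3 mt-Nd2 was at −0.069 and mt-Co1 at −0.12. Without APP/PS1 female 2 mt-Nd5 was at −0.15, mt-Nd4 at −0.15 and mt-Nd6 at −0.075. The 10 members were measured in the same libraries, so their shared direction is not 10 separate observations.

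The marker lists were for cortical excitatory neurons, interneurons, astrocytes, oligodendrocytes, microglia, endothelium, choroid plexus, striatal neurons and blood. Summed levels of 2 of them separated the female groups, and those of none separated the male groups. Among all genes tested 1 by 1, 9.34% separated the female groups and 10.3% the male groups. A sum follows its most abundant markers, and single markers were not compared. The sum of 4 astrocyte markers was 1731 to 1812 CPM in knockout females, against 2001 to 2194 CPM in APP/PS1 females. That of 4 blood markers was 1.35 to 4.02 CPM in knockout females, against 4.05 to 6.89 CPM in APP/PS1 females. The blood groups thus nearly met, and the scarcest blood marker, Hbb-bt, averaged 0.46 CPM. The other lists overlapped. Microglial markers summed to 318 to 386 CPM in knockout females, against 378 to 410 CPM in APP/PS1 females, and markers of cortical excitatory neurons to 1396 to 1905 CPM in knockout females, against 1294 to 1528 CPM in APP/PS1 females. Choroid plexus markers summed to 590, 67.0 and 10.98 CPM in knockout females, against 41.9, 3051 and 71.2 CPM in APP/PS1 females, so that APP/PS1 female 2 alone was far above the rest. No astrocyte, microglial, neuronal or choroid plexus marker was at 0 in any library, and 1 blood marker was. The part of these cell types in the female values was not tested.

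The difference between the sexes was tested as the interaction, the female genotype effect minus the male one. It lay below 0 for 9 members, with a median of −0.27, against −0.0068 over all genes tested, and 0 of 10 members and 0.0% of all genes passed. At an unadjusted p under 0.05 there were 2 members, mt-Nd5 and mt-Nd6, against 7.21% of all genes. The interaction of mt-Nd5 was −0.38 (SE 0.17, edgeR adjusted p = 0.667). That of mt-Nd6 was −0.59 (SE 0.25, edgeR adjusted p = 0.667), and −0.32 without knockout male 1. The interaction of mt-Co2, 1.48 (SE 1.03), was −0.25 without APP/PS1 male 2. With RIN as a covariate the interaction was nearer to 0 for mt-Nd5, at −0.20, and farther from 0 for the other 9 members, for example −0.67 in place of −0.26 for mt-Nd1 and −0.66 in place of −0.21 for mt-Nd4. No member passed the test of the interaction with the covariate. Within groups RIN varied most in APP/PS1 males, so the values with the covariate lean on that group.

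The members together made up 3.50, 3.38 and 3.15% of all counts in knockout males, against 3.34, 3.17 and 3.21% in APP/PS1 males. In females they made up 2.91, 3.92 and 2.98% in the knockout, against 3.51, 4.13 and 3.76% in APP/PS1. Group means were 3.34 ± 0.176% for knockout males, 3.24 ± 0.0894% for APP/PS1 males, 3.27 ± 0.565% for knockout females and 3.80 ± 0.313% for APP/PS1 females (SD, n = 3 each). The lowest and the 2nd highest library were both knockout females. The exact 95% binomial interval of a library's share was at most 0.0204 percentage points wide, so counting error, the only error it covers, was far below the spread between mice.

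Across sexes the share was 3.31 ± 0.377% in the knockout and 3.52 ± 0.368% in APP/PS1 (SD, n = 6 each), a difference of −0.214 percentage points beside a pooled SD within groups of 0.338. Without APP/PS1 female 2 the difference was −0.0921 points. In males the difference was 0.100 points, and 0.0241 without knockout male 1. In females it was −0.529 points, and between −0.855 (without knockout female 2) and −0.350 (without knockout female 1) when 1 library was left out. The female difference was larger in size than this SD, which pools all 4 groups, but smaller than the SD of knockout females, 0.565. The female ranges overlapped through knockout female 2.

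**Figure D4:**
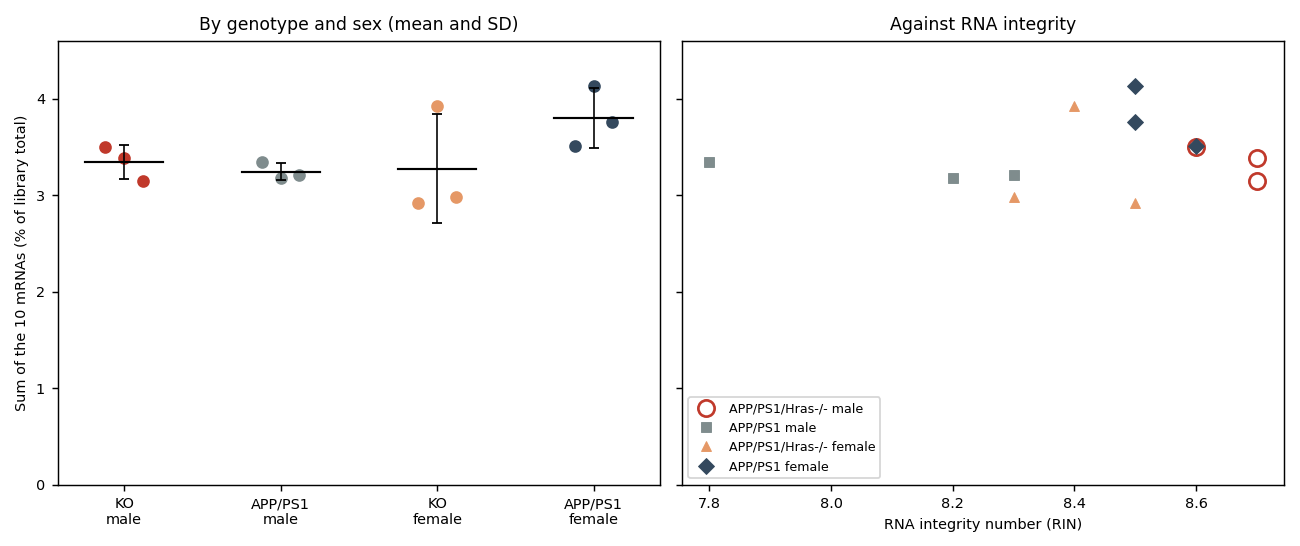
Sum of the 10 mRNAs as a percentage of all counts in each library, by genotype and sex (left, line and bar at the mean and SD of 3 mice) and against RIN (right). KO is APP/PS1/Hras-/-; knockout males lie at RIN 8.6 to 8.7 with shares of 3.15 to 3.50%, APP/PS1 males at RIN 7.8 to 8.3 with shares of 3.17 to 3.34%.

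RIN was 8.6 to 8.7 in knockout males and 7.8 to 8.3 in APP/PS1 males, so in males genotype and RNA integrity cannot be told apart from group means. In a model with sex and genotype, 8 members had a positive and 2 a negative coefficient per unit of RIN, with a median of 0.16 on the log2 scale (0.0023 over all genes tested). None of the 10 and 0.0% of all genes passed. The only member at an unadjusted p under 0.05 was mt-Nd5, at 0.45 per unit (SE 0.21, edgeR adjusted p = 0.369), against 13.2% of all genes. With RIN as a covariate, the genotype difference in males lay nearer to 0 for mt-Nd5, at −0.019 in place of 0.12, and farther from 0 for the other 9 members. Among these, mt-Nd1 was at 0.45 in place of 0.12, mt-Nd4 at 0.35 in place of −0.014 and mt-Cytb at 0.25 in place of 0.029. The 3 members with wide errors moved most, to −3.20 for mt-Co2, 0.82 for mt-Co3 and 2.61 for mt-Atp6. These male values came from the fit with 1 mean per group, not from the additive model. RIN was higher in knockout males. The rises of mt-Nd1, mt-Nd2, mt-Nd6, mt-Co1, mt-Co3, mt-Atp6 and mt-Cytb therefore imply RIN coefficients below 0 in that fit. Their additive coefficients were above 0, from 0.075 for mt-Nd1 to 1.65 for mt-Co3, so the sign depended on the model. In females 9 of the 10 members stayed below 0 with the covariate, mt-Co2 being at 0.13, and the 6 abundant members lay between −0.31 for mt-Nd4 and −0.21 for mt-Co1. No member passed the test with the covariate in males or females.

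Between the sexes, 9 members lay higher in females and 1 lower, with a median log2 difference, females minus males, of 0.095 (0.0017 over all genes tested). None of the 10 passed, beside 0.0693% of all genes, and at an unadjusted p under 0.05 there were 0 members against 4.65% of all genes. mt-Co1 averaged 14866 ± 1788 CPM in females and 13953 ± 301 CPM in males (SD, n = 6 each), a log2 difference of 0.088 (SE 0.075). mt-Nd2 averaged 3260 ± 560 CPM in females and 2902 ± 226 CPM in males (SD, n = 6 each), a difference of 0.16 (SE 0.11). The groups overlapped for every member (0.272% of all genes did not). The exception in direction, mt-Co2 at −0.67, was at 0.20 without APP/PS1 male 2.

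The nuclear subunits of the same complexes form a natural comparison, because each complex is assembled from the products of both genomes. Of 71 nuclear subunits of complexes I, III and IV and the ATP synthase, 23 lay higher and 48 lower in the knockout across sexes, with a median of −0.026, and 0 were called by edgeR (0 at an unadjusted p under 0.05). Over all genes tested across sexes, 51.1% lay higher and 1.68% had an unadjusted p under 0.05. In males 7 nuclear subunits lay higher and 64 lower (median −0.14, 0 called), against 51.5% of all genes higher. At an unadjusted p under 0.05 there were 18, against 3.91% of all genes. In females 66 lay higher and 5 lower (median 0.078, 0 called), against 50.5% of all genes higher. There 2 had an unadjusted p under 0.05, against 3.81% of all genes. Their interaction was above 0 for 70 and below 0 for 1 (median 0.21, 0 called), against 49.0% of all genes above 0. For the interaction 18 had an unadjusted p under 0.05, against 7.21% of all genes. The 71 subunits were measured in the same libraries, so their shared direction is not 71 separate observations.

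Without mt-Co2, mt-Co3 and mt-Atp6, 5 of the 7 remaining mitochondrial mRNAs lay higher in knockout males and lower in knockout females, and 2 lay lower in both. Of the 71 nuclear subunits, 59 lay lower in knockout males and higher in knockout females, 5 lower in both and 7 higher in both. No nuclear subunit lay higher in males and lower in females. In the additive model, 6 nuclear subunits had a positive and 65 a negative coefficient per unit of RIN (median −0.26, 0 called). At an unadjusted p under 0.05 there were 35, against 13.2% of all genes. The members had 8 positive and 2 negative coefficients in that model. For most members the sign was the other one in the fit with 1 mean per group. RIN coefficients of the nuclear subunits in that fit were not compared. RIN was higher in every knockout male than in any APP/PS1 male, and its part in the male values was not tested. The difference between the 2 sets was not tested.

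**Figure D5:**
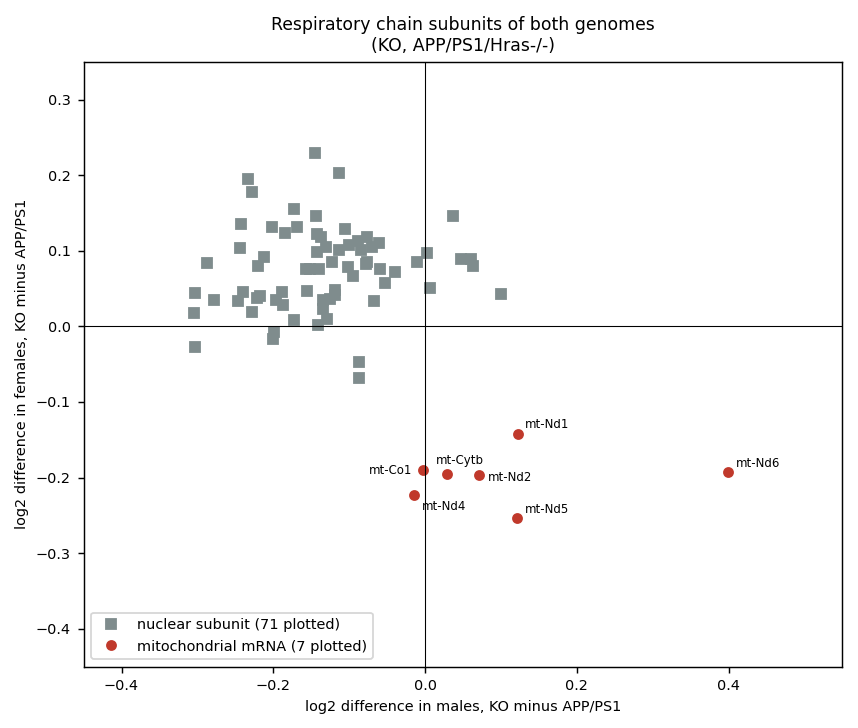
Log2 difference, APP/PS1/Hras-/- (KO) minus APP/PS1, in females against males for 71 nuclear subunits (squares) and 7 mitochondrial mRNAs (circles) of the respiratory chain and ATP synthase. Most nuclear subunits lie at the upper left (59 of 71) and the mitochondrial mRNAs below the horizontal line (7 of 7).

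Across sexes, 12 nuclear subunits of complex I lay higher and 24 lower in the knockout. The counts were 4 and 5 in complex III, 4 and 7 in complex IV, and 3 and 12 in the ATP synthase. By complex, the 2 nuclear subunits of smallest p in each direction were as follows, so the named genes do not show that balance. In complex I, Ndufs1, the large subunit with iron-sulfur clusters, averaged 125.7 ± 6.16 CPM in the knockout and 119.7 ± 7.66 CPM in APP/PS1 (SD, n = 6 each). Ndufb5, an accessory subunit, averaged 68.4 ± 3.16 CPM in the knockout and 73.8 ± 5.56 CPM in APP/PS1. The log2 differences were 0.071 (SE 0.057) for Ndufs1, −0.11 (SE 0.058) for Ndufb5, 0.072 (SE 0.054) for Ndufb3 and −0.13 (SE 0.077) for Ndufc1. In complex III they were 0.068 (SE 0.048) for the core protein Uqcrc2, 0.092 (SE 0.070) for Uqcrb, −0.10 (SE 0.065) for cytochrome c1, Cyc1, and −0.11 (SE 0.071) for Uqcr10.

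In complex IV, Cox8a averaged 171.8 ± 13.8 CPM in the knockout and 193.3 ± 22.8 CPM in APP/PS1 (SD, n = 6 each), a difference of −0.16 (SE 0.077). Cox5a differed by −0.097 (SE 0.074), Cox6c by 0.020 (SE 0.076) and Cox7b by 0.018 (SE 0.058). In the ATP synthase, the catalytic subunit Atp5b differed by 0.0083 (SE 0.057), Atp5l by 0.045 (SE 0.072), Atp5d by −0.12 (SE 0.10) and Atp5e by −0.14 (SE 0.081). Complex II, which has no mitochondrially encoded subunit, had 2 of 4 genes higher and 2 lower, with Sdha at 0.024 (SE 0.049), Sdhb at 0.00032 (SE 0.057), Sdhc at −0.072 (SE 0.049) and Sdhd at −0.058 (SE 0.057). None of these genes passed the test.

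Factors that copy, transcribe and process mitochondrial RNA did not pass either. Of all genes tested across sexes, 51.1% lay higher in the knockout and 1.68% had an unadjusted p under 0.05. Of 19 genes of mitochondrial transcription and DNA maintenance, 8 lay higher and 11 lower in the knockout and 0 were called by edgeR (0 at an unadjusted p under 0.05). Rnaseh1, which removes RNA from RNA-DNA hybrids, averaged 12.97 ± 1.22 CPM in the knockout and 11.6 ± 0.597 CPM in APP/PS1 (SD, n = 6 each), a difference of 0.16 (SE 0.082). Tfam, which packages the DNA and starts transcription, differed by 0.085 (SE 0.057). Tk2, a thymidine kinase, differed by −0.079 (SE 0.083) and Twnk, the replicative helicase, by −0.069 (SE 0.087).

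Of 26 genes of mitochondrial RNA processing, stability and modification, 11 lay higher and 15 lower, with 0 called. At an unadjusted p under 0.05 there was 1, against 1.68% of all genes. That gene was Ptcd3, a pentatricopeptide protein of the mitochondrial ribosome, at 36.3 ± 1.97 CPM in the knockout and 40.5 ± 3.62 CPM in APP/PS1 (SD, n = 6 each), a difference of −0.16 (SE 0.069). Lrpprc, which stabilises mitochondrial messenger RNAs, differed by 0.078 (SE 0.063), and Mtpap, the poly(A) polymerase that tails them, by −0.11 (SE 0.064). Pde12, which removes such tails, differed by 0.095 (SE 0.084). Of 6 regulators of mitochondrial biogenesis 3 lay higher and 3 lower with 0 called and 0 at an unadjusted p under 0.05. Their differences were 0.19 (SE 0.13) for the coactivator Ppargc1b, 0.057 (SE 0.077) for its relative Pprc1, and for the transcription factors −0.071 (SE 0.073) for Nrf1 and −0.068 (SE 0.12) for Esrra.

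The genes whose pattern over the 12 libraries was most like that of the members were sought among 17287 other tested genes, by Pearson correlation with the mean centred log2 CPM of the members. The closest were Kcnj16 (r = 0.931), Rap2c (0.927), Glud1 (0.923), Ebf3 (0.917) and Timp3 (0.905). With mt-Co2, mt-Co3 and mt-Atp6 left out of the mean, a choice made after seeing the data, the closest were Ranbp3l (0.940), Ankrd10 (0.936), Nudcd1 (0.930), Slc22a8 (0.925) and Gm45902 (0.921). Spearman's rho was 0.895 to 0.923 for the first 5 genes and 0.881 to 0.972 for the second 5. Without the 2 libraries farthest from the median of the mean, r was 0.843 to 0.918 for the first 5 and 0.868 to 0.959 for the second 5. No gene was in both lists of 5. All points share the same libraries and scaling, and these are the highest values out of many, so they describe these libraries and carry no test.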

How the data were processed

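mRNA libraries of frontal cortex were sequenced as pairs of 150-base reads. The authors deposited a table of raw counts per gene for 12 libraries, without normalization. Libraries were stranded, per the labels' protocols. Per the submitters' processing notes, Trimmomatic 0.33, FastQC 0.11.7, HISAT2 2.1.0 and featureCounts were used, with mm10 and mm9 named as builds. The sources used here do not name the annotation, the strand setting or how multi-mapping reads were counted. Overlapping genes can share reads. mt-Nd5 and mt-Nd6 share 14 bases on opposite strands. On the same strand, mt-Atp6 shares 43 bases with mt-Atp8 and 1 with mt-Co3, and mt-Nd4 shares 7 with mt-Nd4l. These genes carry that uncertainty, as do genes with nuclear copies.

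Identifiers were matched to GENCODE M21. Of 54532, 37 had no match and held 0.0099% of the counts. The filterByExpr rule over the 4 groups kept 17307 genes, all 10 members among them. Testing was by edgeR 4.0.16 (quasi-likelihood, robust dispersions) in R 4.3.3, with TMM scaling and Benjamini-Hochberg adjustment over all 17307 genes at 0.05. The effect across sexes, the sex effect and the RIN coefficient came from additive models, the others from a fit with 1 mean per group that shares its spread over the 12 libraries. Each standard error was taken from the F value, and 95% intervals use the normal quantile, so they can exclude 0 where the test does not pass. Copies were aligned with blastn 2.17.0 and kept at 98% identity over 100 bases or more. Shares carry exact (Clopper-Pearson) 95% intervals.

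Alternatives were RLE scaling, scaling on nuclear genes alone, DESeq2 1.42.0, limma-voom (limma 3.58.1), no filter, RIN as a covariate, nuclear copies added, other denominators and each library left out. Leaving out both knockout male 1 and APP/PS1 female 2 was added after seeing the data. In simulated data for the effect across sexes (17086 genes), 10% of genes with a log2 change of 0.3 were recovered, 62% at 0.58, 80% at 1 and 100% at 2. Of the unchanged genes 3 were called. The changed genes were drawn at random among those at 1 CPM or more, so recovery of the members was not measured. Effects within 1 sex and the interaction were not simulated.

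The members and gene lists were chosen with earlier results of these data known. Named genes are the members, the other mitochondrial protein-coding genes, copies at 98% identity or more, the genes called in each list and the 2 of smallest p in each direction across sexes, and the 5 genes most correlated with the members.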

Additional observations from a re-analysis of the deposited data

Results flagged for a closer look

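In 22 sets of 6 libraries, 1 for each member and genotype and 1 for each genotype's share of all counts, the gap between the highest or lowest library and its nearest neighbour was set against the whole range with Dixon's criterion, which chance passes in about 1 of 20 sets. It passed in 3. mt-Nd6 was at 35.8 CPM in APP/PS1/Hras-/- male 1, with the other 5 knockout libraries at 20.5 to 25.1 CPM. mt-Co2 was at 149.8 CPM in APP/PS1 male 2, with the other 5 APP/PS1 libraries at 18.4 to 25.9 CPM. mt-Co3 was at 110.1 CPM in APP/PS1 female 2, with the other 5 APP/PS1 libraries at 11.8 to 18.2 CPM.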

How the results depend on the processing

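No member passed the test under any alternative run (smallest adjusted p 0.175). Of 1140 alternative log2 differences, 38 changed sign, in 18 results, and 28 of these had 1 library left out. Under limma-voom mt-Atp6 across sexes was −0.014. With RIN as a covariate, mt-Nd6 across sexes was −0.019, mt-Co1, mt-Nd4 and mt-Nd5 in males were 0.066, 0.35 and −0.019, and mt-Co2 in females was 0.13. With both knockout male 1 and APP/PS1 female 2 omitted, mt-Atp6 across sexes was −0.28, mt-Co3 and mt-Cytb in males were −0.043 and −0.052, and the RIN coefficient of mt-Cytb was −0.022.

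When single libraries were omitted in turn, the ranges that crossed 0 were −0.064 to 0.046 for mt-Nd1, −0.14 to 0.0092 for mt-Nd2, −0.15 to 0.68 for mt-Atp6 and −0.052 to 0.19 for mt-Nd6 across sexes. For the sex effect they were −0.030 to 0.082 for mt-Nd1 and −0.83 to 0.20 for mt-Co2. In males they were −0.017 to 0.014 for mt-Co1, −0.044 to 0.16 for mt-Co3, −0.071 to 0.073 for mt-Nd4 and −0.053 to 0.074 for mt-Cytb. The interaction of mt-Co2 ran from −0.25 to 1.92. RIN coefficients ran from −0.039 to 0.48 for mt-Nd1, −0.027 to 0.51 for mt-Nd2, −3.40 to 0.15 for mt-Co2 and −0.082 to 0.31 for mt-Nd4. The cause of these sign changes was not tested. No paired analysis was possible because replicates were numbered in sample order and the labels pair no mice.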

Other observations

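The other mitochondrial genes of the table were 3 protein-coding genes, 2 ribosomal RNAs and 22 transfer RNAs. Per kilobase, mt-Nd3 and mt-Nd4l, subunits of complex I with 97.0% and 97.97% of their windows matched in the nucleus, averaged 10.4 ± 2.60 and 7.32 ± 3.63 CPM (SD, n = 12), and mt-Atp8, with 0 matched windows among its 55, 4.97 ± 1.38 CPM. mt-Atp8 shares 43 bases with mt-Atp6. Between the copies Gm10925 and Gm28661, which match the genes on either side of mt-Atp8, lie 233 bases of chromosome 1 whose sequence was not used here, so a match to mt-Atp8 there would not have been found.

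The ribosomal RNAs mt-Rnr1 and mt-Rnr2, the RNAs of the mitochondrial ribosome, averaged 2265 ± 253 and 2148 ± 198 CPM per kilobase (SD, n = 12), between mt-Nd2 and mt-Nd5. Both together held 0.483 to 0.660% of all counts. Their genotype differences across sexes were 0.10 (SE 0.088) and 0.041 (SE 0.079), and neither passed the test. In females they lay at 0.16 (SE 0.13) and 0.029 (SE 0.11), above 0, where all 10 mRNAs described lay below it. That contrast was noticed in the values and was not tested.

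mt-Nd4l had the smallest p among these genes in males, with 94 counts in knockout male 2 and a log2 difference of 1.13 (SE 0.37, edgeR adjusted p = 0.945). Of the 22 transfer RNAs, 7 had no count in any library and 17 had under 100 in all libraries together, and the highest total was 2961.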
